A study of Mus musculus with 4 samples.

Results

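The genes described here encode the proteins of the cytosolic ribosome in mouse. They were chosen by name, as the rows called Rpl or Rps with a number, together with Rpsa and the P stalk genes Rplp0, Rplp1 and Rplp2, and without rows named as pseudogenes, Rps27l and the S6 kinases. This gave 87 members of the 51905 genes listed: 35 of the small subunit, 49 of the large subunit and 3 of the P stalk. RNA was taken from 2 mouse colorectal cancer lines, CT26 and MC38, which come from different mouse strains and carry the genotype label WT. CT26 was grown in RPMI-1640 and MC38 in high glucose DMEM, both with fetal bovine serum. Cells of each line received a lentiviral short hairpin directed at GFP (shGFP, which served as control) or at Aurka, the gene of the mitotic kinase Aurora-A (shmaurka-1), and were selected with puromycin and harvested 48 h after seeding. All 4 groups had thus been through the same virus and selection, 1 hairpin stood for the knockdown, and each group was 1 library.

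A ribosome joins a small subunit, which reads the mRNA, to a large subunit, which forms the peptide bond. Cells make the ribosomal proteins in nearly equal numbers, and growing cells spend a large part of their transcription and translation on them. Their mRNAs typically begin with a C followed by a run of C and T, the 5′ terminal oligopyrimidine tract, through which growth signals passing mTORC1 set how strongly they are translated. Translation was not measured in these libraries. Most of these genes have left processed pseudogenes, reverse-transcribed copies of the mRNA, elsewhere in the genome.

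The libraries held between 22207768 and 23752269 fragments. Aurka itself had 5724 fragments in the CT26 control and 1093 after knockdown, and 2300 and 413 in the MC38 pair. Labels call CT26 a fibroblast and MC38 an epithelial cell. Over 12 epithelial markers, the summed FPKM was 43.1 and 42.7 in the CT26 libraries and 1.86 and 1.41 in the MC38 libraries. More than 3 fragments were counted for 5 of the 12 in each CT26 library and for 6 in each MC38 library. Krt18 had 1516 and 1485 fragments in CT26 and 12 and 14 in MC38, and Krt20 434 and 205, then 2 and 0. Esrp1 had 46 and 27 and Vil1 38 and 29 in MC38, with 0 in CT26, while Epcam, Cdh1, Cldn3 and Cldn4 had at most 6 in any library. The epithelial markers were thus low in MC38. Over 12 mesenchymal or fibroblast markers, the summed FPKM was 1873 and 1851 in CT26 and 609 and 639 in MC38. The sum was thus higher in the line labelled fibroblast, with 11 or 12 of the 12 above 3 fragments in each library. Much of that gap came from S100a4, with an FPKM of 951 and 921 in CT26 and 36.8 and 60.1 in MC38. By FPKM, Col1a1, Col1a2, Fn1, Pdgfrb and Vim were also higher in both CT26 libraries than in both MC38 libraries. Col3a1 and Pdgfra were lower in both CT26 libraries, and Dcn, Fap, Lum and Thy1 overlapped between the lines. Over 6 immune markers the summed FPKM was between 4.69 and 8.15. Because the RNA is bulk, fewer cells of a type and less RNA per cell cannot be told apart.

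The annotated mRNA starts were searched for an unbroken run of C and T over the start base. Such a run could have a T at the start and could extend before it, outside the mRNA. It is therefore a wider measure than the tract described above. RefSeq (GRCm38.p6) gave a start for 62 of the 87 members. The 8 windows printed here run from 15 bases before to 15 bases from the annotated start, on the coding strand. They were chosen to show long runs, shorter ones and starts without one. Capitals mark the unbroken run of C and T over the start.
Rpl7a, chr2:26910792-26910821, + strand: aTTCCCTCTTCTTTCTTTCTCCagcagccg
Rpl27a, chr7:109519180-109519209, + strand: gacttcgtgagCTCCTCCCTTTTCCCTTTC
Rpl35, chr2:39005117-39005146, - strand: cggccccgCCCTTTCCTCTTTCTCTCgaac
Rps10, chr17:27635230-27635259, - strand: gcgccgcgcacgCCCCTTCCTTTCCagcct
Rplp2, chr7:141447636-141447665, + strand: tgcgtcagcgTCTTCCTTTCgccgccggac
Rps6, chr4:86857353-86857382, - strand: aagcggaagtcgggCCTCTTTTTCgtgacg
Rpl5, chr5:107900513-107900542, + strand: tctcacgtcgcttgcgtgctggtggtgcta
Rplp0, chr5:115559452-115559481, + strand: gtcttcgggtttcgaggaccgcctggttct

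A run of at least 5 bases of C and T lay over an annotated start in 20 of these 62 members (32.3%), against 11.8% of the 27025 genes of the table. Rpl7a had a run of 21 such bases, the longest among the members, much of it before the annotated start, where the base was a T. The annotated starts of Rpl5 and Rplp0 began with a G. A start annotated a few bases off the true one would hide a tract, so the count describes the annotation. In the 300 bases from 250 before to 50 after the start, the letters CGGAAG or their reverse complement CTTCCG, the core bound by ETS factors, occurred in 66.1% of the members and 18.8% of all genes of the table. AAGATGG or CCATCTT, the core of the YY1 motif, occurred in 16.1% and 7.28%, and the E-box CACGTG in 9.68% and 8.09%. AAGATGG and CGGAAG can overlap by their shared AAG.

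The share of each library taken by the members came first. Members took 3.39% of the fragments of CT26 shGFP (804310 of 23752269; exact binomial 95% interval 3.38 to 3.39%) and 3.49% of CT26 shmaurka-1 (3.48 to 3.50%). They took 3.67% of MC38 shGFP (3.67 to 3.68%) and 3.86% of MC38 shmaurka-1 (3.85 to 3.87%). The share was higher in the knockdown of both lines, 1.03-fold in CT26 and 1.05-fold in MC38. The intervals cover counting error only, and with 1 library per condition neither ratio has a replicate check. Of summed FPKM, which divides by transcript length, the members held 10.1% and 10.4% in CT26 and 10.6% and 10.9% in MC38.

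The share was then split by subunit, without a test between the groups. Small-subunit genes took 1.36 and 1.42% of the CT26 libraries and 1.45% of MC38 shGFP, with a knockdown ratio of 1.04 in CT26 and 1.03 in MC38. Large-subunit genes took 1.77 and 1.81%, then 1.81 and 1.91%, higher in the knockdown of both lines. The MC38 values include Rpl13 (0.128 and 0.144%), which was listed at 0 in CT26, so they cannot be set against those of CT26. The P stalk, through which the large subunit recruits elongation factors, held 0.260% and 0.258% in CT26 but 0.410% and 0.446% in MC38. Its knockdown ratio was the highest of the 3 groups in MC38, 1.09, and the lowest in CT26, 0.995. Gm8730, a near-identical copy of Rplp0, had 19869 and 20729 fragments in CT26 and 1153 and 1227 in MC38. With such copies (defined below) added, the stalk held 0.36 and 0.37% in CT26, a ratio of 1.03 that turned the direction and was above the 1.02 of the large subunit counted likewise. In MC38 its ratio stayed at 1.09. Mitochondrially encoded genes, a rough sign of RNA quality, took between 1.25 and 1.45% of a library and were lower in the knockdown of each line.

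**Figure D1:**
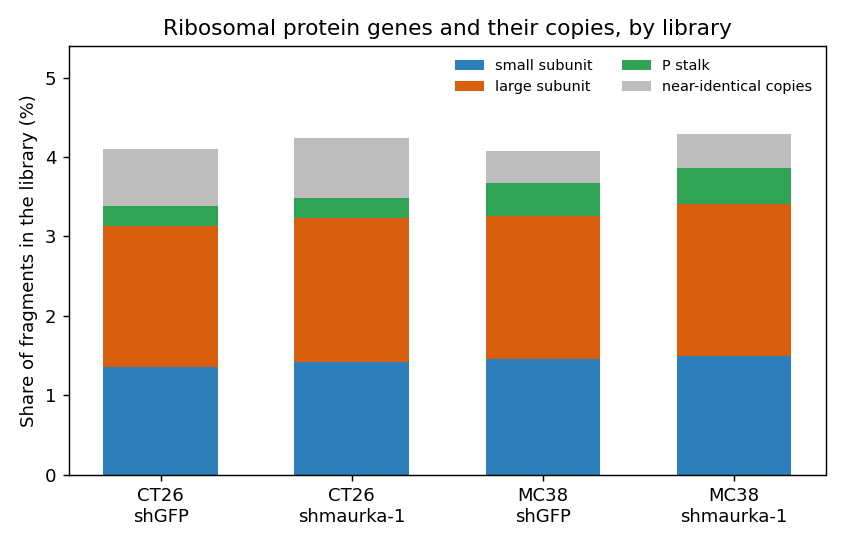
Share of the fragments of each library, in percent, taken by small-subunit, large-subunit and P stalk genes and by near-identical copies of the members, 1 library per bar. Members alone reach 3.39% in CT26 shGFP and 3.86% in MC38 shmaurka-1, and copies add between 0.404 and 0.752%.

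As transcripts per length, the members were among the most abundant genes. Their median FPKM over the 81 members that passed the filter (on average 10 or more counts in CT26 and likewise in MC38) was 660 and 688 in the CT26 libraries and 453 and 488 in the MC38 libraries, against 14.4 to 14.9 over all 11928 genes that passed. An FPKM above 100 was reached by 74 of the 81 in each CT26 library and by 75 in each MC38 library. The highest mean FPKM belonged to Rplp1, an acidic P stalk protein, with 3222 and 3114 in CT26 and 1972 and 2166 in MC38. Rpl32 had 2210.2 and 1999, then 1385 and 1584, and Rplp0, the base of the stalk, 1252 and 1391, then 2102 and 2318. At the low end of the mean lay Rps3a3, a retrocopy (26.1 and 31.3, then 17.6 and 18.1), the paralog Rpl22l1 and Rpl21 (9.97 and 9.47, then 119.6 and 110.02). The rank order of the members by FPKM was close between the libraries of a line (Spearman's rho 0.99 across members in both lines) and less close between lines (0.76 for the shGFP pair and 0.78 for the shmaurka-1 pair). These values describe 81 genes of the same libraries and are not a test.

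**Figure D2:**
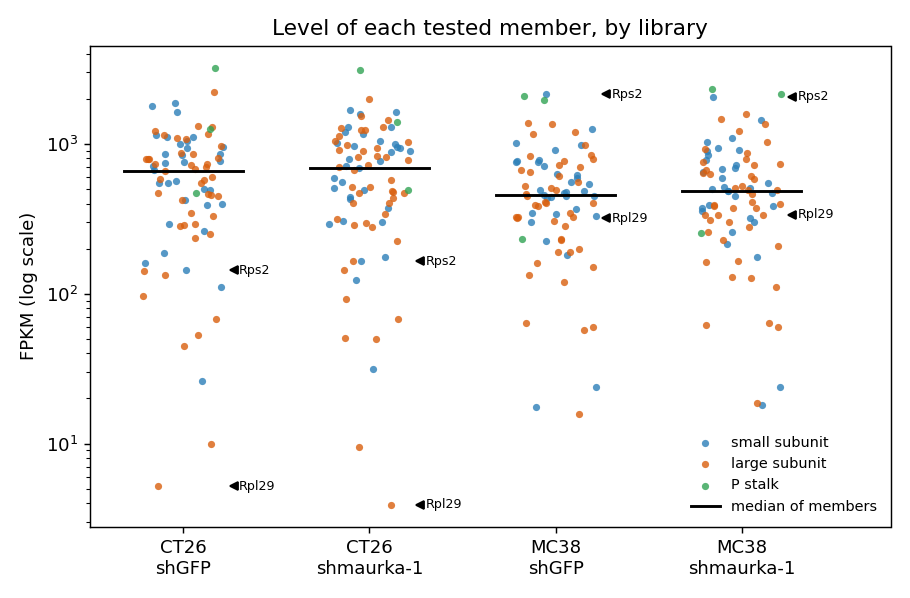
FPKM of each of the 81 tested members on a log axis in each of the 4 libraries, coloured by subunit, with a line at the median. Rpl29 and Rps2 are named because both lie below the median in the 2 CT26 libraries, while in MC38 Rpl29 is nearer to the median and Rps2, at an FPKM of 2139 and 2062, is at or near the top.

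Of the 87 members, 6 did not pass the filter. Rpl10l, a testis paralog of Rpl10, had 0 fragments in every library, and a count of 0 allows up to 3 fragments of a library, a share of up to 1.35e-05%. Rpl3l, the muscle paralog of Rpl3, had 3 and 0 fragments in CT26 and 8 and 5 in MC38. Rps12l1 had 5, 7, 6 and 8, and Rps4l 4 and 2 in CT26 and 27 and 33 in MC38. Rpl39l, a paralog of Rpl39 known from male germ cells, had 2269 and 2147 fragments in CT26 and 2 in each MC38 library, so it was abundant in one line and near the floor in the other.

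Rpl13 was listed at 0 in both CT26 libraries and had 29415 and 32880 fragments in MC38. Its listed locus spans chr8:119910359-124345724 and is shared by 210 genes, all 210 of which were at 0 in both CT26 libraries, although 88 of them were above 0 in both MC38 libraries. Rpl13 was therefore taken as not measured in CT26 and no fold change is given. Without it the members held 3.54% of MC38 shGFP and 3.71% of MC38 shmaurka-1. Of all members, 38 had a locus of their own in the files and 49 shared theirs with other genes.

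The next comparison asked how each member moved with Aurora-A knockdown within each line. Fold changes are shmaurka-1 over shGFP on deposited counts scaled by TMM (trimmed mean of M-values) with 1 count added. The members moved little. In CT26 their median log2 fold change was 0.05 (SD over members 0.18), against -0.01 (SD 0.34) over all genes tested. In MC38 it was 0.07 (SD 0.19), against 0.00 (SD 0.29). In CT26, 53 of 81 members were above 1-fold, where 49.2% of all genes tested were. In MC38, 64 of 81 were above 1-fold, where 49.9% of all genes were. The CT26 count was 48 under total-count scaling (44.6% of all genes) and 44 with the trend on mean count removed (49.9%), and the MC38 count was 59 (45.5%) and 53 (49.6%). Within 0.2 of no change on the log2 scale lay 62 members in CT26 and 68 in MC38. The quartiles of all genes tested, -0.17 and 0.14 in CT26 and -0.14 and 0.14 in MC38, also lay within 0.2.

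Fold change also ran with abundance over all genes. When the trend of fold change on mean count over all genes was removed, the members' median was 0.012 in CT26 and 0.045 in MC38. In both lines 40 of the 81 members were above 1-fold (28% of all genes tested) and 4 were below (28.9%), these being Rpl17, Rpl23a, Rpl6 and Rpl6l. The remaining 37 moved in opposite directions. Correlated across these 81 genes of the same libraries, CT26 and MC38 gave a Pearson's r of -0.30 and a Spearman's rho of -0.29, where all genes tested gave 0.17 for both. Without Rps27a the r was 0.03 and the rho -0.26, and without Rps27a and Rpl17 the r was -0.21 and the rho -0.31. With near-identical copies added, over all 81 members with Rps27a again included, the r was -0.52 and the rho -0.28. Members of the 2 subunits had like medians, 0.08 and 0.07 for the small subunit in CT26 and MC38, and 0.03 and 0.07 for the large. All 3 stalk genes were above 1-fold in MC38, with log2 fold changes between 0.11 and 0.15, and lay between -0.10 and 0.10 in CT26. Among the 58 tested members with an annotated start, 20 had a run of at least 5 bases of C and T over it. Their medians were 0.03 in CT26 and 0.10 in MC38, and those of the 38 without one 0.07 in both, a description with no test.

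**Figure D3:**
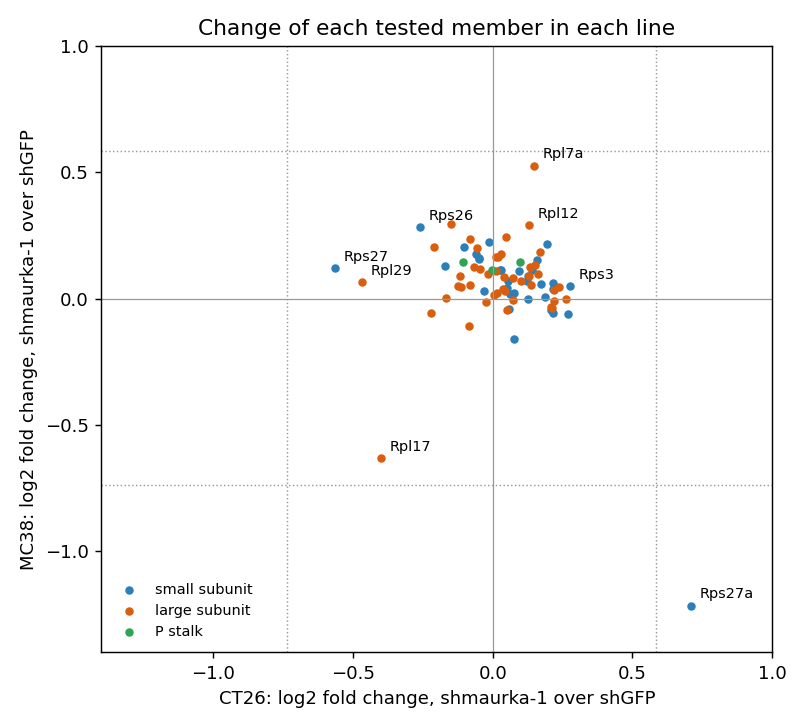
Log2 fold change of each of the 81 tested members in CT26 (horizontal axis) and MC38 (vertical axis), coloured by subunit, with dotted lines at 1.5-fold and 0.6-fold. Most members sit near the origin, Rps27a lies alone at 0.71 in CT26 and -1.22 in MC38, and Rpl17 lies below 0 in both.

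Only 1 member passed a fold threshold in either line under these settings, and it did so in opposite directions. Rps27a, made as a fusion of ubiquitin with a small-subunit protein, had 2201 fragments before and 3308 after knockdown in CT26, that is in shGFP and shmaurka-1, but 7105 and 2997 in MC38. It thus had more fragments after knockdown in CT26 and fewer in MC38, with its MC38 control well above the other 3 libraries. Its log2 fold change came to 0.71 in CT26 (counting interval 0.63 to 0.79) and -1.22 in MC38 (-1.28 to -1.15). Above 1.5-fold in CT26 lay 3.2% of all genes tested, and below 0.6-fold in MC38 1.03%. No member fell below 0.6-fold in CT26 (2.57% of all genes did) and none exceeded 1.5-fold in MC38 (2.47%). The other genes at its listed locus, Clhc1 and Gm12090, had at most 9 fragments in any library. Its 7 near-identical copies summed to 279 and 322 fragments in CT26 and 404 and 477 in MC38, and with them added the log2 fold changes were 0.67 and -1.08.

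Proteins with functions beyond the ribosome, other than Rps27a, had log2 fold changes between -0.16 and 0.28. Rpl5 and Rpl11, which bind the 5S rRNA and can hold Mdm2 away from p53, had log2 fold changes of 0.07 and 0.00 in CT26 and 0.08 and 0.02 in MC38. Rpl5 had 20201 and 19547 fragments in CT26 and 28615 and 29664 in MC38. Rps6, the substrate of the S6 kinases, had 19470 and 19990 fragments in CT26 and 20199 and 21997 in MC38, a log2 fold change of 0.16 and 0.15. Rpsa, also known as the laminin receptor, had the most fragments of any small-subunit member in CT26, 44000 and 46287, with 36445 and 41477 in MC38, and log2 fold changes of 0.19 and 0.22. Rps3, which lines the mRNA entry channel, had 0.28 and 0.05, and Rps19, a gene mutated in Diamond-Blackfan anaemia, 0.22 and -0.06. Rps14 had 0.08 and -0.16, the latter the lowest value in MC38 after Rps27a and Rpl17.

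Rpl3, which reaches into the catalytic centre, had 20414 and 21883 fragments in CT26 and 20523 and 20600 in MC38, log2 fold changes of 0.22 and 0.03. Rpl10, which joins the subunit late in its assembly, had 0.21 and -0.04, and Rpl13a, which can also silence translation of inflammatory mRNAs, 0.16 and 0.10. Rpl22 had 0.10 and 0.07. Rpl12, near the base of the stalk, had 21000 and 21114 fragments in CT26 and 16472 and 19731 in MC38, with 0.13 and 0.29. Rpl23a, at the exit of the peptide tunnel, had -0.22 and -0.06. Rps16 and Rps26 were among the members whose fold changes differed most between the lines: Rps16 had 0.27 in CT26 and -0.06 in MC38, and Rps26 -0.26 and 0.28.

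The lines were then taken as the 2 replicates of the knockdown in 1 model. edgeR's quasi-likelihood test of the knockdown term, blocked on cell line and adjusted by Benjamini-Hochberg over 11928 genes, called 2 of the 81 members. The p-values measure only the spread between these 4 libraries, which with 1 residual degree of freedom per gene rests on the spread shared by all genes. The fit called 1.67% of all genes tested higher and 1.12% lower in the knockdown. Rpl7a rose, having 7169 and 7303 fragments in the CT26 pair and 4718 and 6658 in the MC38 pair, with a log2 fold change of 0.34 ± 0.095 (SE, adjusted p = 0.02). Most of that came from MC38 (0.53) rather than CT26 (0.15), and with a filter at a mean of 50 counts Rpl7a was not called (edgeR, adjusted p = 0.15). Rpl17 fell by 0.51 ± 0.10 on the log2 scale (adjusted p = 0.000133), with 3607 and 2513 fragments in the CT26 pair and 2950 and 1866 in the MC38 pair, lower in the knockdown of both lines. The other genes listed at the loci of Rpl7a and Rpl17 had 0 fragments in every library. At an unadjusted p under 0.05 edgeR had 5 members (6.17%), against 12.3% of all genes tested. DESeq2's Wald test called 0 members (0.243% of all genes) and had 2 at an unadjusted p under 0.05 (4.17% of all genes). limma-voom called the same 2 genes as edgeR (2.24% of all genes).

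Counts of near-identical copies stood beside both calls. A copy was a gene outside the members whose transcript matched a member's coding sequence with at least 95% identity over at least 80% of it, the match making up at least 30% of the copy's longest transcript. There were 494 copies for 71 of the 83 members that could be searched, 485 of them annotated as pseudogenes. Reads that fit a member and its copy alike can be split between the rows in more than 1 way, the rule used for these files is not given in the sources used here, and its part in the results was not tested. Rpl17 had 18 copies with 2892 and 3523 fragments in CT26 and 3060 and 3791 in MC38, which thus ran opposite to Rpl17. Rpl17-ps10 alone had 1236 and 1907 fragments in CT26 and 1331 and 2142 in MC38. With copies added, Rpl17 changed by 0.02 (CT26) and -0.06 (MC38) on the log2 scale and was not called (adjusted p = 0.97). Rpl7a with its 25 copies had 0.14 and 0.45 and was not called either (adjusted p = 0.053). With copies added edgeR called 0 of 82 members (Rpl13 enters through its copies) and 2.85% of all genes, with 4 at an unadjusted p under 0.05 (12.5% of all genes in that fit); DESeq2 and limma-voom were not run on those sums.

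Rps27, a small-subunit zinc-finger protein, and its retrogene ran in opposite directions in CT26. The Rps27 row had 1591 and 989 fragments in CT26 and 1209 and 1289 in MC38, a log2 fold change of -0.56 in CT26 and 0.12 in MC38. Rps27rt, a retrogene, had 1594 and 2243 fragments in CT26 and 1159 and 1303 in MC38, up in CT26 where Rps27 was down. The coding sequences of the pair were identical over all 252 bases. The first 90 bases from the start codon, the same in both genes, are shown in lower case because no base differs.
Rps27 and Rps27rt, bases 1 to 90: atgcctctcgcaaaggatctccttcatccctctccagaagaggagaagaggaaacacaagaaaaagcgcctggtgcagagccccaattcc
Summed with its copies, Rps27 had a log2 fold change of 0.14 (CT26) and of 0.16 (MC38), so the lower CT26 value was not seen in the sum.

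The lines themselves differed more in these genes than the knockdown did. The cell line term of the same fit, over both libraries of each line, called 70 of 81 members, where it called 73.3% of all genes tested. Of the members, 57 were higher in CT26 (36.6% of all genes) and 13 lower (36.7%). The median difference (CT26 minus MC38) was 0.47 on the log2 scale over the members and 0.00 over all genes. Under total-count scaling, which put the median of all genes at -0.30, 38 members were called higher (26.2% of all genes) and 21 lower (48.2%), and the members' median was 0.18, again 0.48 above that of all genes. The SD of the difference over members was 1.27, against 0.18 and 0.19 for the knockdown within a line. Medium and strain differ with the line and cannot be told apart from it.

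Members with both libraries of one line more than 2-fold from both of the other numbered 15. Higher in CT26 were 9 (11.5% of all genes tested): Rps3a2, Rpl37, Rpl9, Rps9, Rpl22l1, Rpl7l1, Rpl27a, Rps4x and Rpl37a. Rps9 had 21676 and 19106 fragments in CT26 and 9445 and 10457 in MC38, a difference of 1.32 ± 0.090. Rpl9 had 8774 and 9517 against 4266 and 4319, a difference of 1.37 ± 0.096, and Rpl37 5593 and 4756 against 2374 and 2400, a difference of 1.40 ± 0.10. Rps3a2, a retrocopy of Rps3a1 by its 99.5% identity, had 1697 and 1703 fragments in CT26 and 446 and 436 in MC38. As a member, Rps3a2 was not counted as a copy of Rps3a1, so adding copies left these rows apart. Rps3a1 itself had 20212 and 18920 in CT26 and 20237 and 21443 in MC38, a difference of 0.19 ± 0.088 (edgeR, adjusted p = 0.038) that was -0.10 under total-count scaling (adjusted p = 0.31).

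Lower in CT26 were 6 (14.5% of all genes tested): Rpl29, Rps2, Rpl26, Rpl21, Rpl35a and Rps18. Rps2, which lies at the mRNA entry of the small subunit, had 2539 and 2700 fragments in CT26 and 47055 and 44643 in MC38. Its copy Rps2-ps10 had 26308 and 25953 in CT26 and 903 and 807 in MC38, the reverse order. Rps18 had 1843 and 1785 fragments in CT26 and 10388 and 10331 in MC38, while its copy Gm10260 had 6044 and 5991, then 93 and 118. Rpl26, a regulator of p53 translation as well as a ribosomal protein, had 411 and 347 in CT26 and 6478 and 6569 in MC38, and its copy Gm15772 had 4701 and 4488, then 207 and 196. In each pair the line that was low in the member was high in the copy.

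The coding sequences of the members and copies shown here differ at few bases. In the following stretches of 90 bases of coding sequence (GENCODE vM39), counted from 1 at the A of the start codon, capitals mark the bases at which member and copy differ. Each stretch holds only part of the differing bases. Reads that miss every differing base, in the stretch and outside it, fit both coding sequences.
Rps18, bases 309 to 398: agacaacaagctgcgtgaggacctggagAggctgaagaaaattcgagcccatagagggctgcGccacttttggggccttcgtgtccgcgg
Gm10260, same bases: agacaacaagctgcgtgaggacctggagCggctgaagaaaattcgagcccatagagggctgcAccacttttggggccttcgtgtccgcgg
Rpl26, bases 132 to 221: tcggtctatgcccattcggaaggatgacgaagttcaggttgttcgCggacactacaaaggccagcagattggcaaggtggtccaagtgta
Gm15772, same bases: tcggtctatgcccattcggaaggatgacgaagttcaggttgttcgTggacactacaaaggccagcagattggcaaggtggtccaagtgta
Rplp0, bases 373 to 462: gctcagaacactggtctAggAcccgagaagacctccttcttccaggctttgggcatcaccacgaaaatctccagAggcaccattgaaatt
Gm8730, same bases: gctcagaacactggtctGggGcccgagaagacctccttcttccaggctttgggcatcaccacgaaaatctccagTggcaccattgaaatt
Rps18 and Gm10260 differed at 4 of 456 bases, 2 of them in the stretch shown (A337C and G371A, member's base first). Rpl26 and Gm15772 differed at 2 of 435, C177T being the one shown. Rplp0 and Gm8730 differed at 12 of 951, with A390G, A393G and A447T shown.

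With copies added, 3 of the 6 members lower in CT26 came close to the other line. The difference of Rps2 went from -3.84 ± 0.098 to -0.37 (edgeR, adjusted p = 1.97e-05), that of Rpl26 from -3.82 ± 0.12 to -0.16 (adjusted p = 0.11) and that of Rps18 from -2.23 ± 0.10 to 0.07 (adjusted p = 0.49). Rplp0 had 32183 and 31666 fragments in CT26 and 73495 and 79654 in MC38, and its copy Gm8730 had 19869 and 20729, then 1153 and 1227. The Rplp0 difference went from -0.98 ± 0.084 to -0.20 (adjusted p = 0.022). Copies moved the difference of 7 members by more than 0.5, these 4 together with Rpl3, Rpl21 and Rpl29. As a whole, copies held 0.712 and 0.752% of the CT26 libraries and 0.404 and 0.430% of the MC38 libraries. Members and copies together took 4.10 and 4.24% in CT26 and 4.08 and 4.29% in MC38. Without Rpl13, members and copies took 4.10 and 4.24% in CT26 and 3.95 and 4.14% in MC38, so the order of the lines turned on whether Rpl13 and the copies were counted. The knockdown was above its control in both lines in each of these sums.

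The other 3 members kept a lower level in CT26 with copies added. Rpl29, a small basic large-subunit protein, had 50 and 33 fragments in CT26 and 4637 and 4754 in MC38. Its 26 copies had 224 and 218, then 2046 and 2114, and the difference was -6.54 ± 0.15 as listed and -4.40 with copies. Rpl35a had 630 and 548 fragments in CT26 and 3700 and 3759 in MC38, -2.38 ± 0.11 as listed and -2.25 with copies. Rpl21 had 192 and 167 in CT26 and 1791 and 2067 in MC38, -3.14 ± 0.14 as listed and -1.71 with its 52 copies. These 3 genes were thus low in both CT26 libraries on either account, and a copy under the stated identity was not counted.

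**Figure D4:**
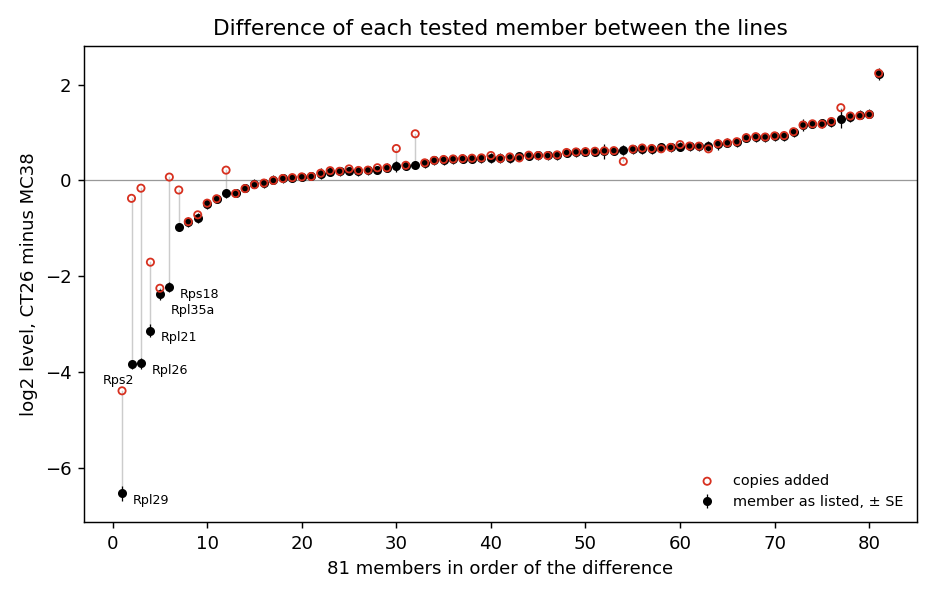
Difference of each of the 81 tested members between the lines (log2, CT26 minus MC38, over both libraries of each line), in order, as listed (filled, ± SE of the edgeR fit) and with near-identical copies added (open red). Rps2, Rpl26 and Rps18 move to near 0 with copies, while Rpl29, Rpl21 and Rpl35a stay below -1.

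Paralogs that can replace a canonical protein were set beside their partners. Rpl22l1, the paralog of Rpl22, had 253 and 262 fragments in CT26 and 122 and 136 in MC38, while Rpl22 had 2154 and 2124, then 4698 and 4835. Rpl22l1 was thus higher in CT26 by 1.29 ± 0.20 (edgeR, adjusted p = 1.35e-10) and Rpl22 lower by a difference of -0.87 ± 0.10 (adjusted p = 3.88e-17), the 2 genes in opposite order. Per length, Rpl22l1 had an FPKM of 44.9 and 50.6 against 289 and 314 for Rpl22 in CT26, and 15.8 and 18.6 against 382 and 376 in MC38. Rpl39l had an FPKM of 238 and 244 in CT26, level with the 236 and 279 of Rpl39, and 0.172 and 0.175 in MC38 against 134 and 130. Rpl7l1, whose product acts in large-subunit assembly, had 7399 and 6853 fragments in CT26 and 3622 and 3829 in MC38, and its partner Rpl7 20157 and 19006, then 15861 and 15933. Rps4x had 18284 and 19129 in CT26 and 10166 and 9994 in MC38. With knockdown, Rpl22l1 had log2 fold changes of 0.17 and 0.18 and Rpl7l1 0.01 and 0.11, and neither was called.

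Genes around ribosome production were taken as further lists, and their counts at an unadjusted p under 0.05 stand against 12.3% of all genes tested for edgeR and 4.17% for DESeq2. Of 40 ribosome assembly factors, the CT26 median was 0.11 and the MC38 median 0.14 on the log2 scale, above the members' 0.05 and 0.07. edgeR called 2 of them higher and 0 lower (1.67% and 1.12% of all genes tested), and had 10 (25%) at an unadjusted p under 0.05. The called genes were Nolc1, a nucleolar protein that escorts small nucleolar RNPs (8425 to 11114 fragments in CT26, 7392 to 9314 in MC38, log2 fold change 0.44 ± 0.092, adjusted p = 0.000282), and Tsr1, a small-subunit assembly factor (4325 to 5131 and 3318 to 4240, 0.38 ± 0.098, adjusted p = 0.00893). Nle1 had 0.36 and 0.40 (adjusted p = 0.057), and at the other end Gnl3l had -0.06 and -0.15 and Ebna1bp2 0.11 and -0.26. limma-voom also called 2 of the 40, and DESeq2 called 0 and had 6 (15%) at an unadjusted p under 0.05. Of 14 genes of RNA polymerase I, which transcribes the ribosomal RNA precursor, the medians were 0.09 and 0.13. edgeR called 0, with 2 (14.3%) at an unadjusted p under 0.05, and DESeq2 and limma-voom also called 0. Polr1d, shared by RNA polymerases I and III, had 0.55 and 0.12 (edgeR, adjusted p = 0.053), Rrn3, which brings the polymerase to its promoter, 0.20 and 0.20, Taf1c 0.02 and -0.17 and Polr1c -0.01 and -0.20.

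Of 33 translation factors, the medians were 0.04 and 0.02. edgeR, DESeq2 and limma-voom called 0, and edgeR had 2 (6.06%) at an unadjusted p under 0.05. Eif5 had the highest mean change, 0.21 and 0.23, followed by Eif3b with 0.16 and 0.19, and the lowest were Eif4a2 (0.08 and -0.26) and Naca (-0.06 and -0.03). The 5 ribosomal proteins that the naming rule leaves out had medians of 0.05 and 0.09. All 3 tools called 0 of these, and edgeR had 1 of the 5 at an unadjusted p under 0.05. Rack1, which sits at the head of the small subunit, had 33130 and 32550 fragments in CT26 and 42389 and 49798 in MC38, 0.10 and 0.26, Fau 0.13 and 0.09, and Rps27l, the paralog of Rps27, -0.08 and 0.08.

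Of 15 genes of mTORC1 and S6 kinase signalling, the medians were 0.03 and 0.04 and edgeR called 1, Rps6kb2, which encodes an S6 kinase. It rose, with 185 and 305 fragments in the CT26 pair and 90 and 300 in the MC38 pair (1.25 ± 0.19, adjusted p = 3.66e-08), while Rps6, the substrate for which the kinase is named, had 0.16 and 0.15. Pdcd4, an inhibitor of the helicase Eif4a, had -0.47 and -0.33 from 50 and 33, then 427 and 333 fragments (adjusted p = 0.50), Larp4 -0.21 and -0.15, and Deptor, an inhibitor of mTOR, 0.35 and 0.04. The 78 mitochondrial ribosomal proteins, encoded in the nucleus, had medians of -0.08 in CT26 and 0.09 in MC38. Of these, 26 were above 1-fold in CT26 (33.3%, against 49.2% of all genes tested) and 58 in MC38 (74.4%, against 49.9%). All 3 tools called 0 of them, and edgeR had 5 (6.41%) at an unadjusted p under 0.05. Mrpl47 had 0.41 and 0.32, Mrps6 0.29 and 0.20, Mrps14 -0.22 and -0.46, and Mrpl39 -0.67 and 0.00. The difference of the medians between the lines was not tested.

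**Figure D5:**
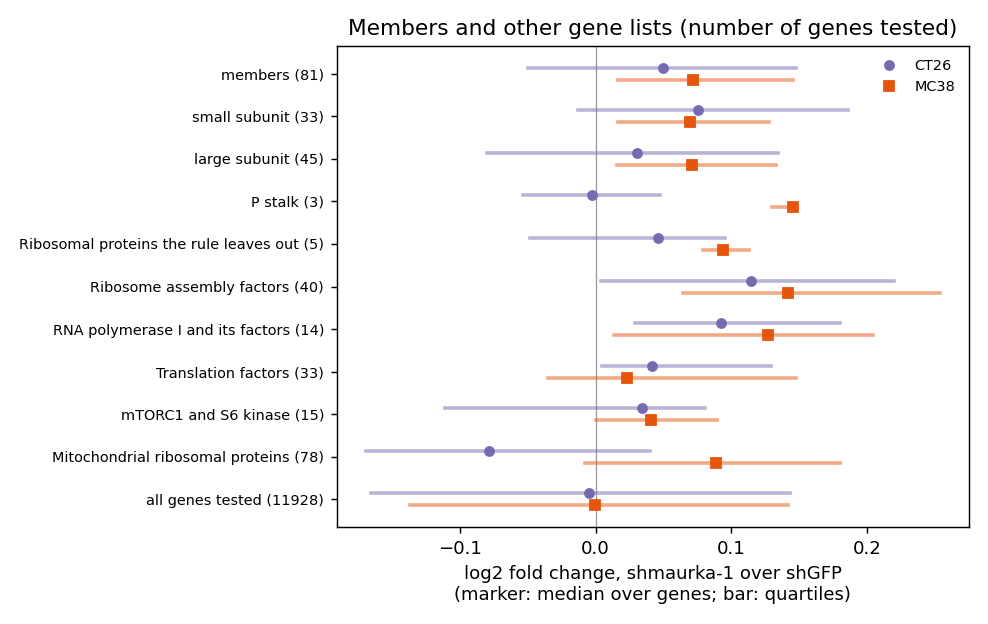
Median log2 fold change (marker) and quartiles (bar) of shmaurka-1 over shGFP in CT26 and MC38 for the members, their groups, the further lists and all genes tested, with the number of genes in brackets. Assembly factors lie at 0.11 and 0.14, the members at 0.05 and 0.07, and mitochondrial ribosomal proteins on opposite sides of 0.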

How the data were processed

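Strand-specific RNA libraries (Agilent SureSelect) were made from total RNA, 1 for each of the 4 conditions. Per the labels, the authors used Trimmomatic 0.36, HISAT2, Cufflinks 2.2.1 and Cuffdiff with build GRCm39. The coordinates of the deposited tables are GRCm38: 99.7% of 20051 genes overlapped their RefSeq GRCm38.p6 namesake and 8.91% of 26888 their GRCm39 gene. The authors deposited estimated counts, already scaled by 1 factor per library, and FPKM for 51905 genes. Dividing by each library's step (0.885 to 1.17) gave whole fragments within 0.05 for 97.1 to 97.7% of nonzero values. Totals were 23752269, 22207768, 22915543 and 22803054 fragments, and intervals and floors (3 fragments) cover counting error only.

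Genes with a mean of at least 10 deposited counts in each line (11928, of which 81 members) were scaled by TMM, and 1 count was added for fold changes. The fold thresholds were 1.5 and 0.6. Counts were rounded and fitted with edgeR 4.0.16 (R 4.3.3; quasi-likelihood, terms for line and knockdown, adjusted p under 0.05). On simulated data for the knockdown effect common to both lines (11928 genes), the fit recovered 64% of 100 genes changed 1.5-fold and 99% of 100 changed 3-fold, with 7 of 170 calls false. The simulation gave all genes the common dispersion of the fit and each changed gene the same effect in both lines. It therefore does not give the error rate of the calls made here. Alternatives were DESeq2 1.42.0, limma-voom (limma 3.58.1), other scalings, filters and added counts, FPKM and the removal of a trend on mean count. Copies were found with BLAST+ 2.17.0 on GENCODE vM39 transcripts, and their addition was chosen after seeing the data. Promoters came from RefSeq GRCm38.p6. The genes named were those with functions beyond the ribosome, the paralogs with their partners, the members with the largest mean change, difference in change and difference between lines in each direction, the highest and lowest FPKM, and the extremes of each further list, of which 1 is not reported here. Members, lists and tests were chosen with earlier results of these data known.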

Additional observations from a re-analysis of the deposited data

Results flagged for a closer look

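The log2 fold change of Rps27a was 0.71 in CT26 and -1.22 in MC38. It stood out because the single pair of libraries of each line moved in opposite directions, past the threshold in both. With 1 library per condition, this difference was not tested.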

How the results depend on the processing

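Of 788 values recomputed under another setting, 711 stayed within their interval, within 1.5 times their count or on their side of the threshold, and 77 did not, 24 of which answer a comparison. The sign changed in 16, of which 5 with copies added and 11 under another scaling or with FPKM. Among called values these were the differences between the lines of Rps18 (0.070 with copies added) and, under total-count scaling, of Rps6 (-0.10) and Rps3a1 (-0.10). The fold changes of Rpl17 (0.02) and Rps27 (0.14) in CT26 also changed sign with copies added. The share of the libraries (CT26 shGFP, CT26 shmaurka-1, MC38 shGFP and MC38 shmaurka-1 in turn) was 10.1, 10.4, 10.6 and 10.9% of summed FPKM, 3.43, 3.53, 3.73 and 3.91% without mitochondrial genes in the total, 3.70, 3.82, 3.83 and 4.02% with named pseudogenes, and 4.10, 4.24, 4.08 and 4.29% with near-identical copies. It was higher in the knockdown of both lines under each of these. The members' median log2 fold change was between 0.03 and 0.09 in CT26 and between 0.05 and 0.08 in MC38 under the other scalings, filters and added counts, and 0.012 and 0.045 with the trend on mean count removed. Past the fold thresholds were 2 members in CT26 with no filter on low counts (Rpl3l and Rps27a) and 2 in MC38 with a lower threshold of 1/1.5 (Rpl17 and Rps27a). For the effect common to both lines, 0 members were called by DESeq2, 0 with copies added, 1 with a mean of at least 50 counts (Rpl17) and 0 with no replicate block, that is without the cell line as a block. That unblocked fit called 0 of 11928 genes, with 0 members at an unadjusted p under 0.05. All genes called numbered 333 by edgeR, 29 by DESeq2 and 101 with a mean of at least 50 counts. No replicate could be left out, since each condition has 1 library. Depth limits single genes: Rpl29, with 50 and 33 fragments in CT26, had an interval of -1.16 to 0.18 there.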
